A study of Mus musculus with 38 samples.

Results

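The comparison described here is spleen 1 day after cyclophosphamide against spleen of untreated mice. Its members are the 8 arrays titled as spleen taken 1 day after the drug, from 4 animals, and the 10 arrays titled as control spleen, from 5 animals, which is 18 of the 38 arrays of the series. All animals were DBA/2 mice. The day 1 animals received cyclophosphamide intraperitoneally at 83 mg/kg and their splenocytes were collected 1 day later. The untreated animals received no drug, and no vehicle group is described. Each array set the animal's spleen RNA, labelled with Cy5, against a common reference labelled with Cy3, which the labels describe as a pool of untreated DBA/2 bone marrow cells. The reference's treatment field names cyclophosphamide, so the labels contradict each other on it. All arrays share the reference, and it cancels between groups. The age and sex of the animals are not given in the labels used here. The design text speaks of 5 animals per condition, while the day 1 labels number 4. The animals were harvested independently, and the p-values below measure the spread between animals.

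Cyclophosphamide is a prodrug that liver enzymes turn into a mustard compound able to crosslink the strands of DNA. Cells that enter DNA synthesis with such damage stop at checkpoints or die, so proliferating cells bear most of its toxicity. The mouse spleen joins a white pulp of B and T lymphocytes to a red pulp, where macrophages take up old red cells and iron, and where red cells are also made in the adult mouse. In bulk RNA of whole splenocytes, fewer cells of a type and less RNA per cell cannot be told apart, and this holds for every gene below.

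The array carries 13443 probes. The test took the 8455 that were measured in 3 or more animals on each side, and 6206 of them name a single gene (6017 genes). An array of the untreated group held 6891 to 9051 values and an array of the day 1 group 8159 to 9608. The technical arrays of an animal correlated at 0.830 to 0.913 in the day 1 group and at 0.581 to 0.944 in the untreated group. Untreated animal 4 (0.581) and untreated animal 2 (0.651) lay below 0.7, and results are also given without both of them. The direction of the deposited ratio is not stated. In untreated animals the mean log2 ratio was 0.24 for the mature B cell list, 0.36 for the T cell list and 0.75 for MHC class II, each above 0 in 5 of 5 animals. It was -1.82 for the neutrophil granule list, below 0 in 5 of 5. The ratio was read as spleen over marrow on that basis, so the sign of these lists is no separate check of the labelled tissue.

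At an adjusted p of 0.05 in limma, 194 probes differed between day 1 and untreated spleen, 2.29% of those tested. Of these, 116 were lower at day 1 (1.37%) and 78 were higher (0.923%). The lower probes named 97 genes and the higher probes 58. The falls were the larger changes: 58 probes fell at least 2-fold and 25 rose at least 2-fold. The median difference over all tested probes was 0.02 on the log2 scale. Animals of the groups did not overlap in 183 of the 194, and over all tested probes they did not overlap in 707 (8.36%; 4.22% with day 1 higher and 4.14% with day 1 lower). Without untreated animals 2 and 4, and without the day 5 animal whose arrays correlated below 0.7, 123 probes passed (40 higher, 83 lower). Without day 1 animal 2 there were 114, and without day 1 animal 4 there were 109.

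Many genes of cell division were lower at day 1. Windows upstream of 4 genes that fell are shown here because they carry, close to the start site, a pair of motifs known from promoters of late cell-cycle genes: the CCAAT box (letters CCAAT), bound by the factor NF-Y, and the cell-cycle homology region (letters TTTGAA). Each stretch is the 150 bases before the RefSeq start site on GRCm38.p6, read 5′ to 3′ on the gene's strand, with motif matches on either strand in capitals. The Cdc20 stretch is chr4:118437344-118437493 (minus strand), that of Cdk1 is chr10:69352913-69353062 (minus strand), that of Depdc1a is chr3:159495283-159495432 (plus strand) and that of Asf1b is chr8:83955544-83955693 (plus strand).
Cdc20: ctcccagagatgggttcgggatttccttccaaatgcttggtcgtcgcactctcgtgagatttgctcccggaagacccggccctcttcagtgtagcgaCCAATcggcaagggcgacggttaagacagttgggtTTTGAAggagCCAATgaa
Cdk1: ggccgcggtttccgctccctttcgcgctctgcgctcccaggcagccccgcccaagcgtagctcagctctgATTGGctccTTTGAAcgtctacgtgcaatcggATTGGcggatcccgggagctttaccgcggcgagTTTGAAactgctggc
Depdc1a: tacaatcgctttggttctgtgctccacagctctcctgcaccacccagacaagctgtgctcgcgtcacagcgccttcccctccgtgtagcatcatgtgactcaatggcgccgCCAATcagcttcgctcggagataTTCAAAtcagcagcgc
Asf1b: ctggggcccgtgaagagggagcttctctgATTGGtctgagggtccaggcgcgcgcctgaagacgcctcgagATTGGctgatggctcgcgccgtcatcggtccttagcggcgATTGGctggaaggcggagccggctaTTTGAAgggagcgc
The motifs were counted by exact match on both strands in RefSeq windows of 300 bases, from 250 before to 50 after a start site; the letters of the motifs do not overlap each other. Of 6181 windows of the tested genes, 37.4% held CCAAT and 13.5% held TTTGAA. Of the 20 windows of measured mitosis genes, 85.0% held CCAAT and 70.0% held TTTGAA. Of the 18 windows of the division genes that fell, 66.7% and 38.9% did. These shares describe sequence, and a match is not evidence of a bound site.

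In all, 68 genes of 4 division lists were measured (mitosis and spindle, replication, nucleotide synthesis, and chromatin proteins of cycling cells). Of these, 19 fell (27.9%, beside 1.37% of all tested probes) and 0 rose. The median difference was -0.53, with 60 of 68 below 0. Without both untreated animals of low technical correlation, 15 of 56 measured fell and the median was -0.61. Leaving out 1 animal at a time gave 15 to 21 falls and no rise. The lists and their members were chosen with results of these data known, so their counts are a description.

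Among the kinases and regulators of mitosis, Cdk1, the kinase that drives cells into mitosis, was lower in all day 1 animals than in any untreated animal. Its log2 ratios were -0.15, -0.10, -0.27, -0.13 and -0.33 in the 5 untreated animals and -1.90, -1.73, -2.10 and -1.53 in the 4 day 1 animals. The groups did not come near each other, and the level was 3.08-fold lower (95% interval 2.37 to 4.00; log2 difference -1.62 ± 0.18 (SE); limma adjusted p = 2.63e-05). Cdc20, which activates the anaphase-promoting complex, lay at -0.33, -0.81, -0.50, -0.22 and -0.51 in untreated and at -1.84, -2.68, -1.94 and -2.02 in day 1 animals. Day 1 animal 2 was the lowest, and all 4 lay below every untreated animal (log2 difference -1.64 ± 0.18, adjusted p = 2.63e-05). Cks2, a small partner of the Cdk kinases, went from -0.24 ± 0.19 (SD, n = 5) to -1.75 ± 0.48 (SD, n = 4), with an adjusted p of 8.05e-05 in limma.

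Several genes that attach and part the chromosomes were among the falls. Sgo1, which protects cohesion at the centromere, lay at -0.63, -0.39, -0.04, -0.08 and 0.00 in untreated animals and at -2.13, -2.27, -1.86 and -1.93 at day 1. It had the largest fall of the mitosis list, 3.53-fold (2.53 to 4.92; adjusted p = 8.55e-05), with no overlap. Nuf2 and Spc24, both of the Ndc80 complex that holds microtubules at the kinetochore, differed by -1.59 ± 0.20 (adjusted p = 0.000102) and -1.04 ± 0.21 (adjusted p = 0.00783) in limma. Cenpk, a centromere protein of the constitutive network, differed by -1.59 ± 0.21 (adjusted p = 0.00014). Esco2, the acetyltransferase that locks cohesin during S phase, was at -0.56, -0.95, -0.90, -0.17 and -0.78 without drug and at -2.09, -2.28, -2.23 and -2.25 at day 1. Its 4 day 1 animals were nearly alike (SD 0.08), and the difference was -1.54 ± 0.19 (adjusted p = 6.37e-05). Cdca8, the borealin subunit of the chromosomal passenger complex, differed by -1.57 ± 0.28, with day 1 animals ranging from -2.41 to -0.95.

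Spindle proteins followed. Nusap1, which bundles spindle microtubules, was at -2.26, -2.32, -2.08 and -2.26 at day 1. Untreated animals stood at -0.26, -0.35, -0.40 and -0.47, apart from untreated animal 2 at -1.29, so the groups stayed separate (difference -1.68 ± 0.28, adjusted p = 0.00175). Prc1, which crosslinks the midzone of the spindle, differed by -1.36 ± 0.20 (adjusted p = 0.000689). Tpx2, an activator of Aurora A, differed by -1.41 ± 0.31 (adjusted p = 0.0144), and without day 1 animal 2 its adjusted p was 0.0676. Depdc1a, a gene known from mitotic cells, differed by -1.55 ± 0.25 (adjusted p = 0.00149). The mitosis list as a whole had 8 falls among 23 measured genes (Cdc20, Cdk1, Cks2, Nuf2, Nusap1, Prc1, Sgo1 and Tpx2) and a median of -0.71. These falls were 34.8% of the list, beside 1.37% of all tested probes. Spc24, Cenpk, Esco2, Cdca8 and Depdc1a are not on that list. The other 15 did not pass. The kinesin Kif11 was at -0.94 (adjusted p = 0.0663) with no overlap between groups, and it passed in some other fits, among them the fit of untreated and day 1 animals alone. The checkpoint kinase gene Bub1b was at -0.82, the passenger complex gene Incenp at -0.71, the condensin gene Smc4 at -0.76 and the checkpoint kinase gene Bub1 at -0.35. Smaller differences were those of the proliferation marker Mki67 at -0.34 (adjusted p = 0.451), Plk1 at -0.09 (adjusted p = 0.905) and Ccna2 at 0.15 (adjusted p = 0.876). Ccna2 and Plk1 are a cyclin and a kinase of the same phase, and Mki67 was measured in 3 of 5 untreated animals. Plk1 had too few values to be tested without day 1 animal 1, 3 or 4.

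The supply of deoxynucleotides showed the smallest adjusted p of the whole comparison. Dut, the enzyme that clears dUTP before it enters DNA, lay at 0.22, 0.01, -0.17, 0.17 and 0.17 in untreated animals and at -1.34, -1.91, -1.69 and -1.24 at day 1. It was 3.09-fold lower (2.49 to 3.83; log2 difference -1.63 ± 0.15; limma adjusted p = 4.46e-06). Tyms, the thymidylate synthase, differed by -1.49 ± 0.21 (adjusted p = 0.000486). Rrm2, the cell-cycle subunit of ribonucleotide reductase, lay at -0.23, -0.06, 0.08, 0.11 and 0.05 in untreated animals and at -1.46, -1.49, -1.93 and -1.51 at day 1. Its groups were far apart (difference -1.59 ± 0.33, adjusted p = 0.0106), and without the animals of low technical correlation the adjusted p was 0.0643 at a difference of -1.56. The other 10 of the 13 measured genes of nucleotide synthesis did not pass, and the list's median was -0.32. The falls were 23.1% of the list, beside 1.37% of all tested probes.

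At the replication fork fewer genes passed, 3 of 23, all lower, with a median of -0.44. Rfc4, a subunit of the loader of the sliding clamp, differed by -1.43 ± 0.28 (adjusted p = 0.00783). That call was lost on technical array 1 of each animal alone and with the animal as a random effect. Over the alternatives the Rfc4 difference ranged from -1.98 to -0.87. Mcm10, which helps start the replicative helicase, differed by -1.05 ± 0.25 (adjusted p = 0.0259) on one probe and by -0.25 on its other probe (adjusted p = 0.63). Orc5, of the origin recognition complex, differed by -0.58 ± 0.14 (adjusted p = 0.028). The Mcm10 and Orc5 calls were each lost in 5 of 9 fits that left out 1 animal, both without untreated animal 4, day 1 animal 2 or day 1 animal 4, Mcm10 also without untreated animal 5 or day 1 animal 3, and Orc5 also without untreated animal 2 or 3 (highest adjusted p 0.0956 and 0.101). The licensing factor Cdc6 was at -1.10 (adjusted p = 0.0724) with no overlap between groups. The clamp Pcna was at -0.80 (adjusted p = 0.103), with untreated animal 2 at -1.74 against -0.31 to 0.06 in the other 4. Without the animals of low technical correlation Pcna was at -1.04 (adjusted p = 0.00189). Pclaf, which binds the clamp, differed by -1.03 ± 0.23 (adjusted p = 0.0198), a call lost without day 1 animal 2 or 4 (adjusted p up to 0.0891).

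Chromatin proteins that accompany division fell in 5 of 9 measured genes (55.6%, beside 1.37% of all tested probes), with a median of -0.76 and none above 0. Hmgb3, a high-mobility-group protein of progenitors, lay at -0.05, -0.01, -0.12, 0.07 and 0.19 in untreated animals and at -1.03, -1.74, -1.84 and -1.22 at day 1, with no overlap (difference -1.47 ± 0.18, limma adjusted p = 7.81e-05). Both forms of the histone chaperone Asf1 fell. Asf1b, the form tied to proliferation, differed by -1.39 ± 0.22 (adjusted p = 0.00101), and Asf1a by -1.06 ± 0.13 (adjusted p = 8.05e-05). The histone variant H2az1 differed by -0.76 ± 0.15, the DNA-binding protein Dek by -1.35 ± 0.27 and the nuclear lamina protein Lmnb1 by -0.81 ± 0.18. Lmnb1 lost its call without day 1 animal 2 or 4 (adjusted p up to 0.0819). Without the animals of low technical correlation Dek had an adjusted p of 0.054 and Lmnb1 of 0.113. Outside these lists, Cdkn2c, an inhibitor of Cdk4 and Cdk6, differed by -0.82 ± 0.15 (adjusted p = 0.00336), and Mxd3, a partner of Max known from S phase, by -1.26 ± 0.19 (adjusted p = 0.000799).

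**Figure D1:**
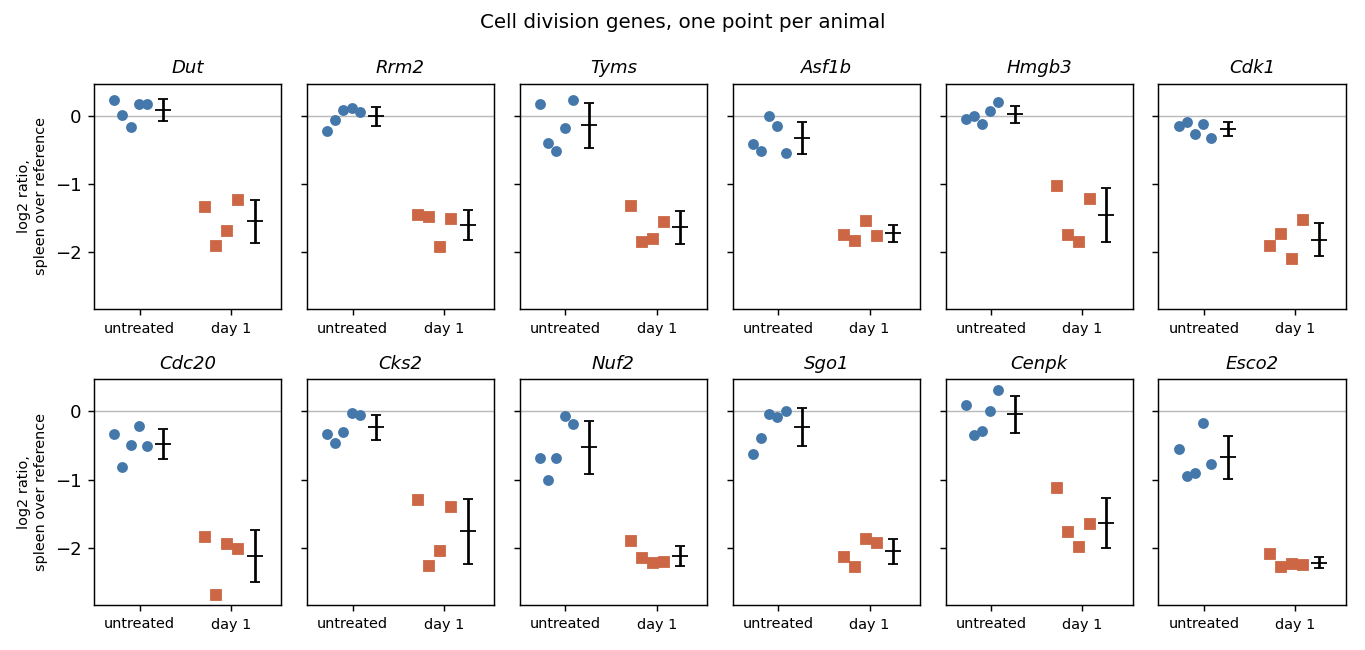
Log2 ratio of spleen over reference (vertical axis) for 12 division genes in the 5 untreated animals (blue circles) and the 4 day 1 animals (orange squares), with the group mean and SD in black. In every panel the day 1 animals lie below all untreated animals; Esco2 has the tightest day 1 group (SD 0.08).

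Genes of red cell formation had a list median about as low as that of the mitosis genes. Windows before 4 of them are shown because each holds the GATA motif (letters AGATAA, or on the other strand TTATCT), the kind of site that the red cell factor GATA1 recognises. They are drawn as above from RefSeq on GRCm38.p6: Alas2 at chrX:150547267-150547416 (plus strand), Kel at chr6:41704326-41704475 (minus strand), Icam4 at chr9:21029282-21029431 (plus strand) and Rhd at chr4:134864386-134864535 (plus strand), with the motif in capitals.
Alas2: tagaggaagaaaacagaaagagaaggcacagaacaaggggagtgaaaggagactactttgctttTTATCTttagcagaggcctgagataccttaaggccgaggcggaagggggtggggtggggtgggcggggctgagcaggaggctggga
Kel: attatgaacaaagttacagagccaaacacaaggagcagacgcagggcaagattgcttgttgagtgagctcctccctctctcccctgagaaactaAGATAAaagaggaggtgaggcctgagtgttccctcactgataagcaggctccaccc
Icam4: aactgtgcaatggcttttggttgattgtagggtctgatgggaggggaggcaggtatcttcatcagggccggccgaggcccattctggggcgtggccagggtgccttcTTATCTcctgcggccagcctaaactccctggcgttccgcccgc
Rhd: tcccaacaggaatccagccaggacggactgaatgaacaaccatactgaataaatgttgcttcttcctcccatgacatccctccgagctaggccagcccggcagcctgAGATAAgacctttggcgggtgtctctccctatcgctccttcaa
The motif was in 4 of the 7 windows (57.1%) of red cell and heme genes that fell, and these 4 are the windows shown. It was in 5 of the 13 windows (38.5%) of all measured red cell precursor genes. Of the 6181 windows of all tested genes, counted as above, 7.94% held the motif. No window of the division genes that fell held it.

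Of 18 measured genes of the red cell precursor list 7 fell (38.9%, beside 1.37% of all tested probes) and 0 rose. The list median was -0.79. Rhd, a membrane protein of the Rh complex, lay at -0.46, -2.12, -0.22, 0.14 and 0.11 in untreated animals and at -2.91, -3.90, -2.37 and -3.29 at day 1. Untreated animal 2 lay apart from the other 4, and the groups still did not overlap. The level was 6.10-fold lower (3.34 to 11.1; log2 difference -2.61 ± 0.42; limma adjusted p = 0.0014). A second Rhd probe gave -0.34 (adjusted p = 0.791), so the probes of this gene disagree. With both probes averaged the log2 difference was -1.55 and still passed.

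Some other surface proteins of red cells fell. Rhag, the partner of Rhd in the Rh complex, was at 0.26 (at -0.15 without the animals of low technical correlation). The erythropoietin receptor gene Epor was at -0.07 and the transferrin receptor gene Tfrc at -0.14. Rhag, Epor and Tfrc did not pass, and Epor was measured in 3 animals of each group. Kel, the Kell blood group peptidase, was at -0.28, -0.30, -1.19, -0.08 and -0.07 in untreated and at -1.49, -2.49, -1.94 and -2.41 in day 1 animals (difference -1.70 ± 0.32, adjusted p = 0.00504). Ermap, an erythroid membrane protein of the butyrophilin kind, was at -0.51, -2.35, -1.38 and -1.66 at day 1, spanning a wide range below untreated values of -0.47 to 0.23 (difference -1.39 ± 0.27, adjusted p = 0.0069). Icam4, an adhesion protein of red cell precursors, differed by -1.61 ± 0.39 (adjusted p = 0.0306), with day 1 animal 1 at -0.52 inside the untreated range of -0.59 to 0.57. Ank1, the ankyrin that ties the red cell membrane to its skeleton, differed by -1.61 ± 0.39 (adjusted p = 0.0274), and Tspo2, a transporter of late erythroblasts, by -1.24 ± 0.29 (adjusted p = 0.0245). The Ank1, Icam4 and Tspo2 calls were each lost in 6 of 9 fits that left out 1 animal. Each was lost without day 1 animal 2, 3 or 4, Ank1 also without untreated animal 2, 3 or 4, Icam4 also without untreated animal 1, 3 or 5, and Tspo2 also without untreated animal 1, 4 or 5 (highest adjusted p 0.11, 0.112 and 0.101). Without the animals of low technical correlation 3 of 14 measured list genes fell, at a median of -1.04. The median of the list's centred values was 0.19 to 0.53 in untreated and -0.76 to -0.07 in day 1 animals. Its part in the other falls was not tested.

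Heme synthesis had 2 falls among 7 measured genes (28.6%, beside 1.37% of all tested probes), at a median of -0.54. Alas2, counted in both lists, the enzyme that sets the rate of heme synthesis in red cell precursors, lay at -0.06, -0.29, -0.21, -0.40 and -0.58 in untreated animals and at -1.82, -2.77, -0.96 and -2.03 at day 1. Day 1 animal 3 was the highest of its group, and the groups did not overlap (3.01-fold lower, 1.86 to 4.88; adjusted p = 0.0114). Its adjusted p was 0.062 without day 1 animal 2 and 0.0571 without the animals of low technical correlation. Ppox, the next-to-last enzyme of the pathway, differed by -1.39 ± 0.33 (adjusted p = 0.0251), a call lost without untreated animal 1, 3 or 4 or day 1 animal 2 or 4 (adjusted p up to 0.106). Fech, which inserts the iron, was at -1.22 ± 0.37 (adjusted p = 0.0951). Not all erythroid genes moved: the globin gene Hba-a1, whose near-identical copy shares its sequence, was at 0.05 ± 0.19 (adjusted p = 0.962). The red cell regulator Klf1 was at -0.17, 0.21, -0.33 and -3.70 in day 1 animals, so its difference of -1.02 (adjusted p = 0.48) rests on day 1 animal 4.

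The largest fall of any named gene was outside the red cell lists. Mgst3, a membrane-bound glutathione transferase, lay at 0.20, 0.17, -0.24, 0.06 and 0.31 in untreated animals and at -2.53, -3.59, -1.42 and -2.85 at day 1. Day 1 animal 3 again lay highest and animal 2 lowest, and the level was 6.51-fold lower (4.11 to 10.3; log2 difference -2.70 ± 0.32; limma adjusted p = 4.52e-05). Ctse, the aspartic protease cathepsin E, differed by -1.67 ± 0.34 (adjusted p = 0.00849), with day 1 animals at -1.68, -2.04, -0.16 and -1.67. Vav2 differed by -1.40 ± 0.28 (adjusted p = 0.0088), with day 1 animals at -2.08, -1.99, -0.81 and -2.06. In both genes, as in Mgst3, day 1 animal 3 lay highest. Btnl10, a butyrophilin-like gene, differed by -1.83 ± 0.39 (adjusted p = 0.0123), a call lost without day 1 animal 4 (adjusted p = 0.0527). Phf10, a subunit of a SWI/SNF remodelling complex, was measured in 3 animals of each group and differed by -1.57 ± 0.37 (adjusted p = 0.0343), too few to test without any of those 6 animals. Without the animals of low technical correlation Ctse had an adjusted p of 0.0517. The peroxiredoxin Prdx2, abundant in red cells, was at -1.38 ± 0.43 (adjusted p = 0.105).

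**Figure D2:**
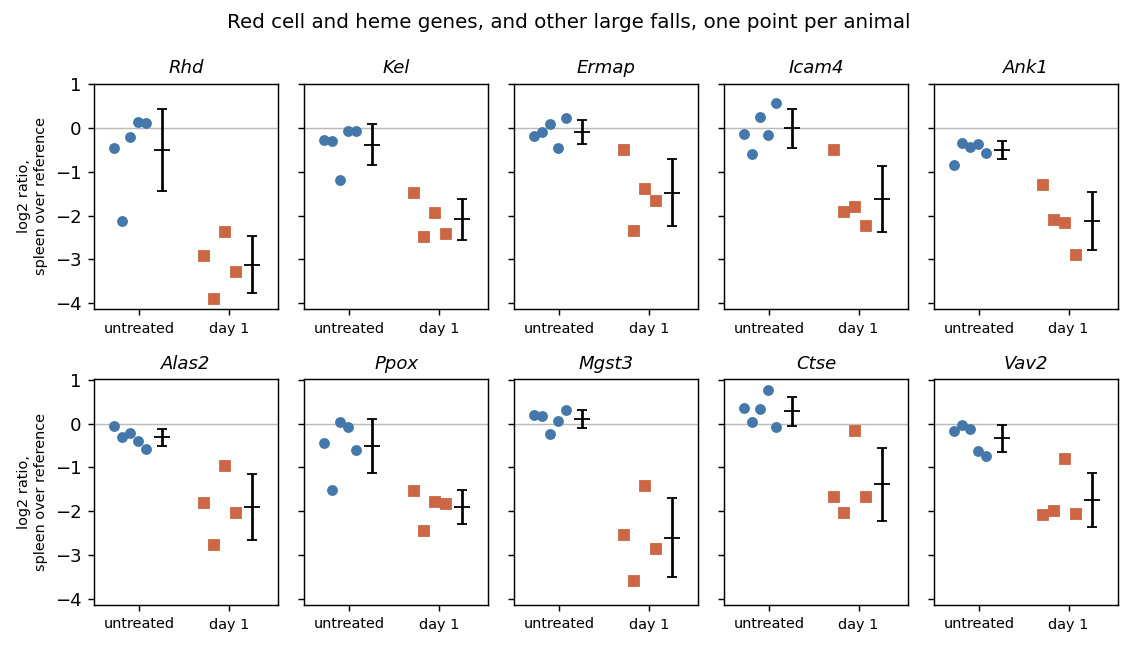
Log2 ratio of spleen over reference for 7 red cell and heme genes and 3 other genes with large falls, drawn as in the plot of division genes. Day 1 animals lie below all untreated animals except in the Icam4 panel, where day 1 animal 1 at -0.52 lies within the untreated range; the day 1 SD runs from 0.39 for Ppox to 0.90 for Mgst3.

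Genes that rose came from several groups. Selenop, the secreted selenium carrier, rose most. It lay at 1.01, 0.90, 0.24, 0.45 and 1.08 in untreated animals and at 2.70, 2.53, 2.24 and 2.43 at day 1. The groups were well apart (3.33-fold higher, 2.16 to 5.14; log2 difference 1.74 ± 0.30; limma adjusted p = 0.00285), and the adjusted p without the animals of low technical correlation was 0.0198.

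Products of macrophages and lysosomes were among the rises. Of 27 measured lysosomal genes 3 rose (11.1%, beside 0.923% of all tested probes), with a list median of 0.19 and 21 of 27 above 0. Acp5, the tartrate-resistant acid phosphatase, was at 0.76, 0.28, 1.26, 0.00 and 0.13 in untreated animals and at 2.22, 1.63, 1.51 and 2.16 at day 1, without overlap (difference 1.40 ± 0.25, adjusted p = 0.00452; 0.0514 without the animals of low technical correlation). The peptidases Ctsc and Tpp1 differed by 1.32 ± 0.33 (adjusted p = 0.036) and 0.99 ± 0.23 (adjusted p = 0.0201). The Ctsc call was lost in 6 of 9 fits that left out 1 animal (without untreated animal 2, 3 or 4 or day 1 animal 1, 2 or 4, adjusted p up to 0.123). The Tpp1 call was lost without day 1 animal 3 or 4 (adjusted p up to 0.0663). The saposin precursor Psap was at 1.35 ± 0.41 (adjusted p = 0.0939), with untreated animal 3 at -1.05 and the other 4 at 0.69 to 1.10.

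Of 11 measured macrophage genes 1 rose (9.09%, beside 0.923% of all tested probes), Siglec1, the sialoadhesin of metallophilic macrophages. The list median was 0.60, with 10 of 11 above 0. Siglec1 lay at 0.69, 1.12, 0.75, 0.76 and 1.00 in untreated animals and at 1.66, 1.68, 1.64 and 1.55 at day 1. The day 1 animals were nearly identical (SD 0.06) and all above the untreated ones (1.70-fold higher, 1.34 to 2.16; adjusted p = 0.0127). Adgre1, which encodes F4/80, the marker of red pulp macrophages, was at 0.97 ± 0.29 (adjusted p = 0.0859), and the iron exporter Slc40a1 at 0.97 ± 0.28 (adjusted p = 0.0756), its day 1 animals at 3.40, 2.20, 2.23 and 2.03 and untreated animals at 1.38 to 1.66. Slc40a1 is on the list of heme breakdown and iron recycling, not the macrophage list. Of 8 measured genes there 0 passed, at a median of 0.15, with 4 above and 4 below 0. The complement genes C1qa and C1qb differed by 1.24 (adjusted p = 0.317) and 0.86 (adjusted p = 0.54) with overlapping animals, and C1qa was measured in 3 animals of each group. Without the animals of low technical correlation the macrophage median was 0.42 over 8 genes, and Siglec1 remained called (adjusted p = 0.0331). Pla2g7, a phospholipase that macrophages secrete, rose in limma from 0.14 ± 0.15 (SD, n = 5) to 1.25 ± 0.14 (SD, n = 4; adjusted p = 0.000689). Mpeg1, a pore-forming protein of phagocytes, differed by 0.92 ± 0.24 (adjusted p = 0.0448), a call lost in 7 of 9 fits that left out 1 animal, all but those without untreated animal 1 or day 1 animal 2 (adjusted p up to 0.152). Anxa5, which binds phosphatidylserine, differed by 0.84 ± 0.16 (adjusted p = 0.00567).

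Of 14 measured p53 targets 2 rose (14.3%) and 0 fell, beside 0.923% and 1.37% of all tested probes. The list median was 0.12. Cdkn1a, the p21 inhibitor of cyclin-dependent kinases, lay at -0.23, -0.74, 0.31, -0.19 and -0.03 in untreated animals and at 0.38, 1.04, 0.78 and 1.52 at day 1. The highest untreated and the lowest day 1 animal lay 0.31 against 0.38, so the groups barely separated (difference 1.11 ± 0.24, limma adjusted p = 0.0162). Its call was lost without day 1 animal 2 or 4 (adjusted p up to 0.0769) and without the animals of low technical correlation (adjusted p = 0.112). Polk, a DNA polymerase that copies past lesions, lay at 0.67, 0.63, 0.47 and 1.04 at day 1 against -0.20 to 0.12 in untreated animals (difference 0.73 ± 0.15, adjusted p = 0.0113; 0.0564 without day 1 animal 4). Ddit4, an inhibitor of mTORC1 on the p53 and glucocorticoid lists, was at 1.46 ± 0.44 (adjusted p = 0.0927) with no overlap between groups. The death receptor gene Tnfrsf10b was at -0.55 ± 0.18 (adjusted p = 0.134). None of 21 measured genes of DNA repair and checkpoints passed in limma (median -0.04), and Brca1 was at -0.65 ± 0.22 (adjusted p = 0.13). None of 12 measured apoptosis genes passed (median 0.11). Over all tested probes 2.29% were called in either direction, so the absence of calls in these 2 short lists says little.

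Some stress, steroid and inflammatory response genes rose. Sgk1, a kinase gene induced by glucocorticoids, lay at -0.28, -0.02, -0.14 and -0.41 in the 4 untreated animals measured and at 1.01, 0.60, 1.25 and 0.98 at day 1. It was 2.26-fold higher (1.70 to 3.00, adjusted p = 0.00285), with no overlap. Sgk1 had too few values to be tested without the animals of low technical correlation. It was the 1 gene of 6 on the glucocorticoid list that passed (16.7%, beside 0.923% of all tested probes called higher). All 6 lay above 0 (median 0.47), with Fkbp5 at 0.70 ± 0.20 (adjusted p = 0.069). Txnip, an inhibitor of thioredoxin that also restrains glucose uptake, differed by 0.98 ± 0.22 (adjusted p = 0.0174). Hif1a, the oxygen-regulated factor, differed by 0.67 ± 0.14 (adjusted p = 0.0103). Txnip lost its call without day 1 animal 2 or 3 (adjusted p up to 0.0667), and both lost it without the animals of low technical correlation (adjusted p = 0.0753 for Txnip, 0.0531 for Hif1a). Hspa1a, a heat-inducible chaperone whose near-identical copy the probe may share, differed by 1.27 ± 0.31 (adjusted p = 0.0332). That call was lost in 7 of 9 fits that left out 1 animal, all but those without untreated animal 2 or day 1 animal 1 (adjusted p up to 0.103).

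Of 22 measured genes of cytokines, chemokines and NF-kB feedback 2 rose (9.09%, beside 0.923% of all tested probes), at a list median of 0.13. Il1b, the inflammatory cytokine interleukin-1 beta, lay at 0.07, 0.13, -0.15, -0.55 and -0.44 in untreated animals and at 0.84, 1.16, 0.49 and 1.45 at day 1 (difference 1.17 ± 0.18, limma adjusted p = 0.00108). The groups did not overlap on this probe, but a second Il1b probe gave 0.04 (adjusted p = 0.965), so its probes disagree. Nfkbia, the inhibitor that NF-kB itself induces, differed by 0.82 ± 0.20 (adjusted p = 0.0274), lost without untreated animal 3 or day 1 animal 3 or 4 (adjusted p up to 0.109). Dusp2, a phosphatase of MAP kinases, was the 1 of 12 immediate early genes that passed (8.33%, beside 0.923% of all tested probes called higher). It differed by 0.64 ± 0.17 (adjusted p = 0.0455). Only the fit without untreated animal 5 kept the call among the 9 that left out 1 animal (adjusted p up to 0.137). None of 18 measured interferon-stimulated genes passed (median 0.24), beside 2.29% of all tested probes called in either direction.

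Matrix, lipid and regulatory genes completed the rises. Col14a1, a fibril-associated collagen, lay at 1.48, 1.04, 1.33, -0.22 and 1.24 in untreated animals and at 2.60, 2.05, 2.55 and 2.54 at day 1 (difference 1.46 ± 0.30, adjusted p = 0.00953). Untreated animal 4 was far below the others, and without the animals of low technical correlation the difference was 1.09 (adjusted p = 0.0408). It was the 1 of 20 measured stroma genes that passed (5.0%, beside 0.923% of all tested probes called higher), at a list median of 0.23. Thbs2, a matrix glycoprotein, differed by 0.85 ± 0.20 (adjusted p = 0.0244). Its call was lost without untreated animal 1, 2 or 4 or day 1 animal 2 or 3 (adjusted p up to 0.0909). Thbs2 had too few values to be tested without the animals of low technical correlation. Thbd, the thrombomodulin of endothelium, differed by 0.69 ± 0.13 (adjusted p = 0.00564). No other of the 11 measured endothelium genes passed (9.09%, beside 0.923% of all tested probes called higher). That list had a median of 0.10, with 9 genes above and 2 below 0. Clu, a secreted chaperone, and Rcn3, a calcium-binding protein of the secretory pathway, had large but scattered differences, 1.50 ± 0.39 (adjusted p = 0.0455) and 1.53 ± 0.38 (adjusted p = 0.0381). Each lost its call in 7 of 9 fits that left out 1 animal, Clu in all but those without untreated animal 5 or day 1 animal 3, and Rcn3 in all but those without untreated animal 1 or 2 (adjusted p up to 0.159 and 0.116).

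Of 10 measured genes of lipid storage 2 rose and 1 fell, beside 0.923% and 1.37% of all tested probes. The list median was 0.44, with 8 genes above and 2 below 0. Dgat2, which makes the last step to triglyceride, was at -0.74, -1.57, -0.31, -0.07 and -1.02 in untreated animals and at 0.57, 0.62, 0.34 and 0.58 at day 1, without overlap (2.41-fold higher, 1.67 to 3.48; adjusted p = 0.00783). Pnpla2, the lipase that opens triglyceride breakdown, differed by 0.59 ± 0.11 (adjusted p = 0.00439). Mgll, the lipase that ends it, differed the other way, by -0.73 ± 0.12 (adjusted p = 0.00272). Dgat2, Pnpla2 and Mgll kept their calls in each fit that left out 1 animal.

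App, the amyloid precursor protein, had the smallest adjusted p of the rises. It lay at -0.20, -0.04, 0.14, -0.01 and -0.26 in untreated animals and at 1.14, 0.88, 1.14 and 1.10 at day 1 (2.20-fold higher, 1.83 to 2.65; limma adjusted p = 2.63e-05). Its other probe was at 0.74 (adjusted p = 0.0996). Itm2b, a membrane protein that binds App, differed by 0.98 ± 0.20 (adjusted p = 0.0103; 0.0796 without the animals of low technical correlation). Pdcd4, a repressor of translation, differed by 0.87 ± 0.14 (adjusted p = 0.00171), Smarca2, an ATPase of the SWI/SNF remodelling complex, by 1.11 ± 0.23 (adjusted p = 0.0113), and Qk, an RNA-binding splicing regulator, by 1.05 ± 0.20 (adjusted p = 0.0064). Ahr, the aryl hydrocarbon receptor, differed by 1.15 ± 0.20 (adjusted p = 0.00337). Frmd4b (1.19 ± 0.22), Pilrb1 (1.04 ± 0.20), Hpcal1 (1.37 ± 0.32) and the sodium pump subunit Atp1b1 (1.22 ± 0.29) were further large rises. Pilrb1 has close relatives in its receptor family that the probe may share. Hpcal1 lost its call without day 1 animal 2, 3 or 4 (adjusted p up to 0.084), and Atp1b1 without untreated animal 3, 4 or 5 or day 1 animal 1 or 4 (up to 0.0949). Slc7a7, an amino acid transporter gene, differed by 1.01 ± 0.26 (adjusted p = 0.0369), a call lost without untreated animal 2 or 3 or any 1 of the 4 day 1 animals (up to 0.1) and without the animals of low technical correlation (0.112).

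Scaling of the arrays bore on the calls. After quantile normalization 11 of the genes named here lost their calls, all of them rises: Rcn3, Clu, Col14a1, Thbs2, Acp5, Ctsc, Mpeg1, Siglec1, Txnip, Nfkbia and Dusp2. With arrays brought to equal spread 25 lost them, among the falls Tpx2, Mcm10, Pclaf, Dek, Lmnb1, Kel, Alas2, Ank1, Icam4, Tspo2, Ppox and Vav2. The genes that lost a call kept their direction.

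**Figure D3:**
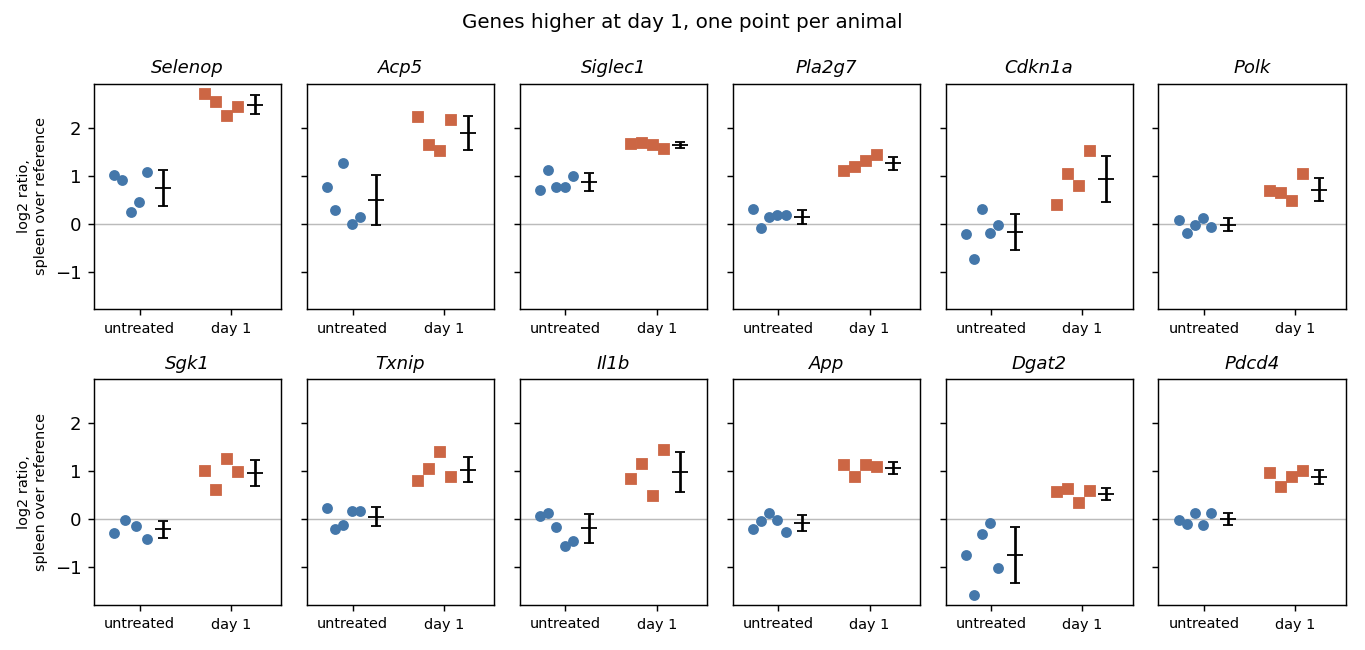
Log2 ratio of spleen over reference for 12 genes that were higher at day 1, drawn as in the plot of division genes. Day 1 animals lie above all untreated animals in each panel; the gap is narrowest for Cdkn1a (0.31 against 0.38) and the day 1 group tightest for Siglec1 (SD 0.06).

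Of 54 measured genes of 8 lymphocyte and NK lists 1 rose and 1 fell, 1.85% each, beside 0.923% and 1.37% of all tested probes. Their median was 0.09. None of 11 measured mature B cell genes passed in limma, with all 11 above 0 and a median of 0.15. Ms4a1, which encodes CD20, was at 0.30 ± 0.19 (adjusted p = 0.541), and Cd37, a tetraspanin of B cells, had the largest difference of that list, 0.45 ± 0.15 (adjusted p = 0.129). None of 6 measured T cell genes passed (median 0.11), with the coreceptors Cd4 at 0.33 ± 0.20 (adjusted p = 0.538, 4 untreated animals) and Cd8a at -0.13 ± 0.15 (adjusted p = 0.798). The fall was Izumo1r, the folate receptor 4 of regulatory T cells, which lay at -1.09, -1.65, -0.78 and -0.95 at day 1 against -0.41 to 0.09 in untreated animals (difference -0.91 ± 0.18, adjusted p = 0.00841; 0.0753 without the animals of low technical correlation). The rest of the 4 measured regulatory T cell genes did not pass, with Ctla4 at 0.05, Ikzf4 at -0.10 and Tnfrsf18 at 0.19 (list median -0.02). The rise was Ahr. Ncr1, the NK cell receptor NKp46, was at 0.56 ± 0.15 (adjusted p = 0.0537). An adjusted p above 0.05 does not show that these genes were unaltered.

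Of 45 measured genes of dendritic cells, neutrophils, monocytes, basophils and eosinophils, megakaryocytes and progenitors 0 passed in limma, with a median of 0.03. List medians ranged from -0.18 (neutrophils) to 0.46 (megakaryocytes and platelets). Prtn3, the proteinase of early granules, was at -1.75 ± 0.53 (adjusted p = 0.09), its untreated animals ranging from -2.67 to 0.28. In housekeeping groups 0 of 140 measured genes of cytosolic and mitochondrial ribosomal proteins, oxidative phosphorylation, proteasome and glycolysis passed, at a median of -0.02. Over all tested probes 2.29% were called in either direction, so counts of 0 in groups of these sizes say little about the lists. In ribosome assembly 1 of 13 fell (7.69%, beside 1.37% of all tested probes), the nucleolar protein Nop58 (-0.71 ± 0.18, adjusted p = 0.0332). That call was kept in 3 of 9 fits that left out 1 animal, those without untreated animal 2 or day 1 animal 2 or 4 (adjusted p up to 0.125).

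**Figure D4:**
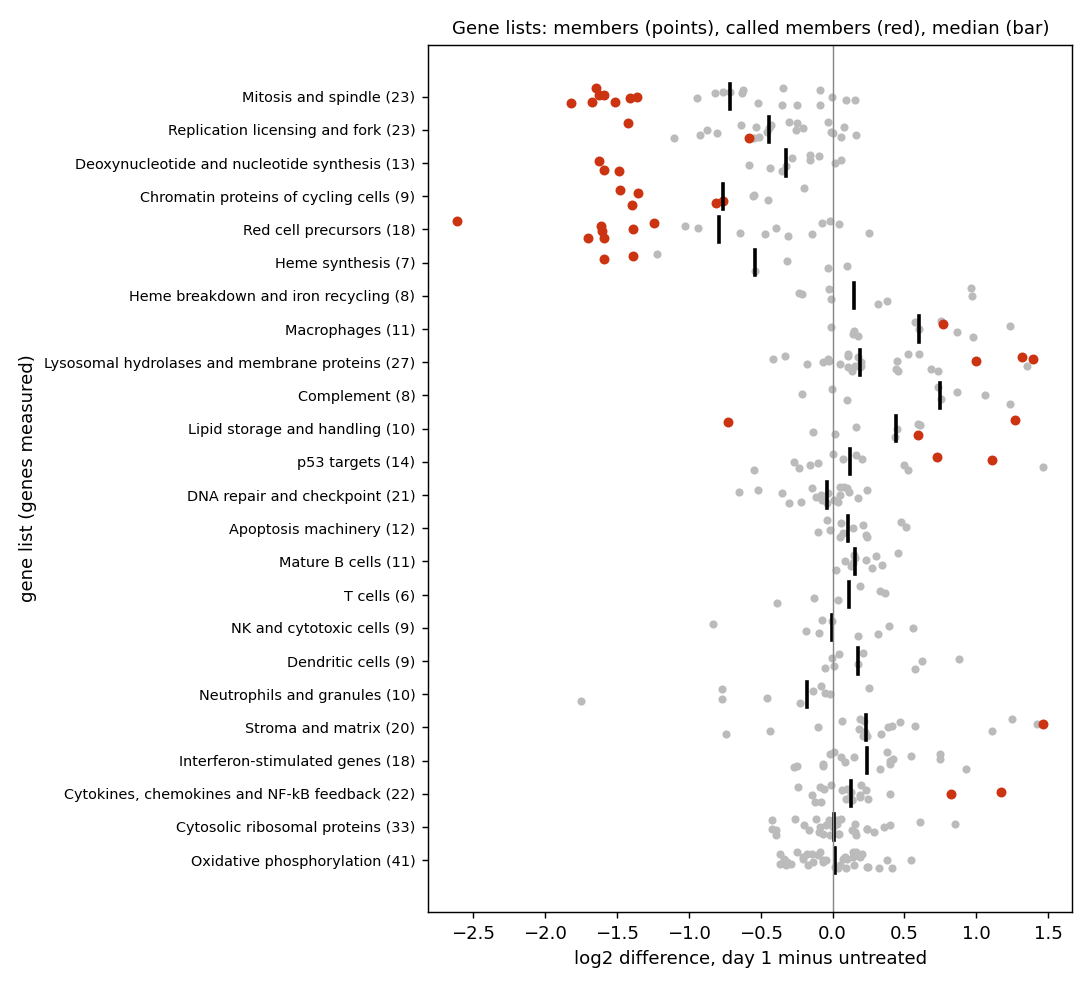
Log2 difference, day 1 minus untreated, of each measured gene (grey points; red where the adjusted p was at most 0.05) in 24 of the 47 gene lists, with the list median as a black bar and 1 probe per gene. Division lists lie to the left (mitosis median -0.71), as does the red cell list (-0.79), while B and T cell lists lie near 0; Mcm10 is drawn by the probe with more values and is therefore grey.

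The later groups place the day 1 values in the course after the drug. Day 2 and day 5 each had 5 animals, and their comparisons with untreated spleen share the untreated animals with the day 1 comparison, so values are given side by side. Day 2 against day 1 called 0 probes higher and 5 lower (0.0591%), and day 5 against day 1 called 48 higher (0.568%) and 25 lower (0.296%). The same day 1 animals chose the genes named above and enter these tests.

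For Cdk1 the mean log2 ratios of the untreated, day 1, day 2 and day 5 groups were -0.19, -1.82, -2.09 and -0.44, and day 5 lay 1.38 ± 0.18 above day 1 (limma adjusted p = 0.000317). Dut followed the same course, at 0.08, -1.54, -1.64 and -0.17, with day 5 above day 1 by 1.37 ± 0.15 (adjusted p = 4.05e-05). For Mgst3 the means were 0.10, -2.60, -3.46 and -0.48 (day 5 minus day 1, 2.12 ± 0.32, adjusted p = 0.00127). These falls were present at day 1 and at day 2 and were largely gone at day 5. The Mgst3 mean was lower at day 2 than at day 1, a step that did not pass the test.

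Alas2 and Vav2 went further down at day 2. In the same order of groups Alas2 was at -0.31, -1.90, -4.25 and -0.76, and day 2 lay below day 1 by -2.35 ± 0.34 (adjusted p = 0.00297). Vav2 was at -0.34, -1.74, -3.90 and -1.06 (day 2 minus day 1, -2.17 ± 0.28, adjusted p = 0.00175). On its probe called at day 1, the red cell surface gene Rhd was at -3.12 at day 1 and -3.98 at day 2, a step that did not pass the test.

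Of the rises, Il1b turned most. On the probe called at day 1 the Il1b means in that order were -0.19, 0.98, 1.42 and -0.64 (day 5 minus day 1, -1.62 ± 0.18, limma adjusted p = 5.42e-05). The other Il1b probe did not show that course, at -0.10, -0.06, 0.16 and 0.04 (0.10 ± 0.16, adjusted p = 0.988). Selenop was at 0.74, 2.47, 1.87 and 1.14 (day 5 minus day 1, -1.33 ± 0.30, adjusted p = 0.0366), and Smarca2 at 0.08, 1.20, 1.01 and 0.17 (-1.03 ± 0.23, adjusted p = 0.0381). Cdkn1a was at -0.18, 0.93, 0.62 and 0.34, with no difference past the threshold between day 1 and either later group.

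**Figure D5:**
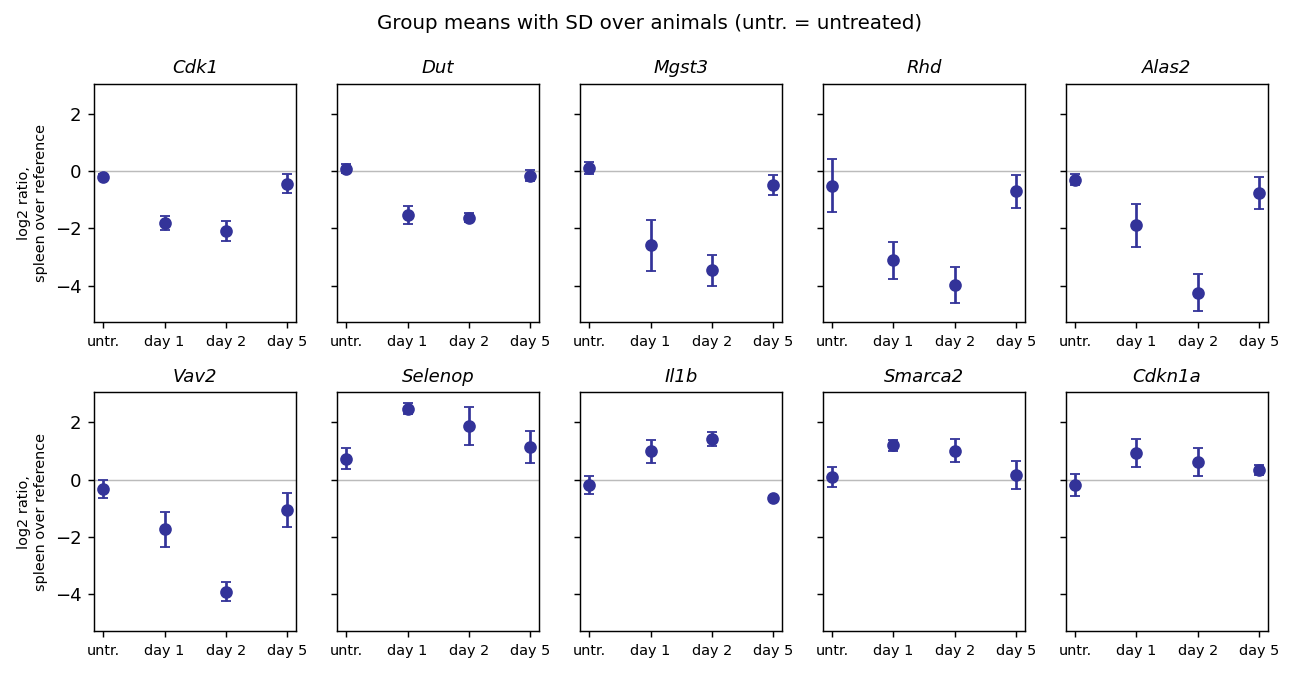
Group mean of the log2 ratio of spleen over reference (points) with the SD over animals (bars; 5 untreated, 4 day 1, 5 day 2 and 5 day 5 animals) for 10 genes. Cdk1, Dut, Mgst3 and Rhd are low at day 1 and day 2 and near the untreated level at day 5, while Alas2 and Vav2 are lowest at day 2 (-4.25 and -3.90). Each gene is drawn by its probe of smallest p, and the other Il1b probe did not show the course drawn. The second Rhd probe gave -0.34 for day 1 minus untreated (limma adjusted p = 0.791), so the Rhd probes disagree too.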

How the data were processed

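The authors deposited 1 table of log2 ratios of 2-colour arrays, 13443 probes by 38 arrays; how background, spot filter, normalization and log base were set is not given in the sources used, and base 2 was taken. Per the labels, RNA was amplified and dyes were not swapped. Values stop at a size of 6, which 7 values reach, and 63.2% are present; the number of animals limits the precision. Probes were named through the platform annotation and RefSeq (GRCm38.p6): 10032 with 1 gene, 170 with several, 3241 with none, the last 2 kinds unnamed.

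The 2 technical arrays of an animal were averaged. Probes with a value in 3 or more animals of both groups entered a linear model (limma 3.58.1 under R 4.3.3, moderated by eBayes) in which the 19 animals of 4 groups shared 1 spread, with Benjamini-Hochberg adjustment at 0.05 over 8455 probes, two-sided. Errors of differences are moderated SEs. The steps were tested on simulated data. Members, lists and tests were chosen with earlier results of these data known. Named genes are the 25 largest rises and falls, list members that passed, and up to 4 per list of smallest p. Named beyond this rule, after their values were seen, were Spc24, Pclaf, Asf1a, Cdkn2c, Mxd3, Vav2, Thbs2, Anxa5, Hif1a, Pdcd4, Kif11, Cdc6, Pcna, Klf1, Mki67, Plk1, Ccna2, Hba-a1, Bub1, Bub1b, Incenp, Smc4, Rhag, Epor and Tfrc. List medians use the probe of a gene with most values. Same-numbered animals did not deviate together (mean correlation -0.02), so no block was used. No slide or scan batch is given here.

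Alternatives covered array scaling, technical arrays, filters on missing values, the fit, thresholds and leaving out animals. Python 3.11.15 and matplotlib 3.10.9 drew the figures.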

Additional observations from a re-analysis of the deposited data

Results flagged for a closer look

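Of 216 groups of animals tested over the named genes, 23 held an animal far from the others, and chance alone gives about 1 in 20 groups. Day 1 animal 1 had Slc40a1 at 3.40 (the others 2.03 to 2.23). Day 1 animal 2 had Cdkn2c at -1.33 (the others -1.18 to -1.15), Col14a1 at 2.05 (the others 2.54 to 2.60) and App at 0.88 (the others 1.10 to 1.14). Day 1 animal 3 had Rrm2 at -1.93 (the others -1.51 to -1.46), Vav2 at -0.81 (the others -2.08 to -1.99) and Ncr1 at 0.32 (the others 0.63 to 0.69). Day 1 animal 4 had Klf1 at -3.70 (the others -0.33 to 0.21) and Cd4 at 1.09 (the others 0.52 to 0.57). Untreated animal 2 had Nusap1 at -1.29 (the others -0.47 to -0.26), Rhd at -2.12 (the others -0.46 to 0.14) and Tpp1 at -1.30 (the others -0.04 to 0.13). It also had Hspa1a at 0.56 (the others -0.32 to -0.21), Qk at -0.87 (the others -0.00 to 0.20) and Hpcal1 at -2.52 (the others -0.52 to -0.44). It also had Pcna at -1.74 (the others -0.31 to 0.06). Untreated animal 3 had Dek at -0.93 (the others -0.25 to -0.02), Kel at -1.19 (the others -0.30 to -0.07) and Tspo2 at -0.90 (the others 0.16 to 0.44). It also had Nfkbia at -0.46 (the others 0.14 to 0.31) and Psap at -1.05 (the others 0.69 to 1.10). Untreated animal 4 had Col14a1 at -0.22 (the others 1.04 to 1.48) and C1qb at -0.25 (the others 1.85 to 2.69).

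Later groups differed from day 1, by a limma test of the difference itself, in 2 named genes at day 2 and in 30 at day 5. At day 2 Alas2 (-2.35) and Vav2 (-2.17) lay below day 1 on the log2 scale. At day 5, genes above day 1 were Cdk1 1.38, Cdc20 1.72, Cks2 1.47, Nuf2 1.18, Cenpk 1.38, Sgo1 1.52, Esco2 1.22 and Prc1 1.24. Further genes above day 1 were Depdc1a 1.27, Dut 1.37, Tyms 1.28, Rfc4 1.20, Asf1a 0.86, Asf1b 0.93, Hmgb3 1.30 and Dek 1.19. Further genes above day 1 were Lmnb1 1.09, H2az1 0.75, Cdkn2c 0.68, Mxd3 0.92, Ermap 1.36, Kel 1.36, Rhd 2.41 and Mgst3 2.12. Further genes above day 1 were Prtn3 2.31. Genes below day 1 at day 5 were Selenop -1.33, Thbs2 -0.85, Anxa5 -0.69, Il1b -1.62 and Smarca2 -1.03. The other Il1b probe was at 0.10 for that difference. Rhd is given by its probe called at day 1, with which its second probe disagreed. The day 1 animals that chose these genes enter the tests, so these values are a description.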

How the results depend on the processing

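The main analysis called 194 probes. The count was 116 with arrays scaled to equal spread, 453 with technical arrays as a random effect, 348 with array weights and 123 without the animals of low technical correlation; it was 76 at an adjusted p of 0.01 and 83 with at least a 2-fold change. The share of higher calls was 40.2% in the main analysis, 49.9% with the random effect, 28.9% at 0.01 and 30.1% at 2-fold. Leaving out 1 animal gave 109 to 177 calls. With the replicate number as a block, a number that does not pair the animals, 171 probes were called, 159 of them among the 194. The other alternatives that count calls stayed within 1.5 times of the main count. Of 79 called genes named in the text, 51 kept their call in all 9 fits without 1 animal, and none reversed under any alternative run. Among genes that did not pass, direction turned for Ccna2 (-0.0352 without the animals of low technical correlation, -0.0822 to 0.432 without 1 animal), Hba-a1 (-0.0328 with the replicate block, -0.0472 to 0.151 without 1 animal), Ms4a1 (-0.0905 after quantile scaling), Rhag (-0.148 without the animals of low technical correlation, -0.0871 to 0.468 without 1 animal), Tfrc (-0.319 to 0.213 without 1 animal) and Cd8a (0.0716 on the second technical array alone); the cause was not tested. For 13 lists with a median of at least 0.3 in size, no median changed sign in 312 list and setting pairs. Missing values and 4 to 5 animals a group limit what could be detected.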
